A study of Mus musculus with 11 samples.

Results

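Of 2886 Foxp3 peaks in mouse regulatory T (Treg) cells, 335 (11.6%) had strong binding of an ETS factor in Foxp3-negative CD4 T cells and none in Treg cells. These peaks, called CD4-only peaks below, were chosen by the authors' score: the peak midpoint lay within 300 bp of one of the 10000 highest-scoring positions of Elf1 or Ets1 in CD4 cells, and within 300 bp of no such position of either factor in Treg cells. "Only" refers to these strong positions, since weaker Treg positions were present at most of the peaks. The same rule put 256 peaks into a group strong in Treg only, 1999 into a group strong in both cell types and 296 into a group strong in neither. The rule used the Elf1 and Ets1 scores of both cell types, so ranks, scores and fold enrichments of these factors at the peaks are descriptions and were not tested.

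Foxp3 is a forkhead transcription factor that defines the Treg lineage. Elf1 and Ets1 belong to the ETS family, whose members share a DNA-binding domain, are abundant in lymphocytes and bind promoters and enhancers of T cells before and after Treg differentiation. Cbfb does not bind DNA itself. It is the partner that stabilizes Runx proteins on DNA, and Runx with Cbfb takes part in Foxp3 expression and function.

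Chromatin immunoprecipitation with sequencing was done on primary T cells from lymph nodes and spleen of mice about 8 weeks old, sorted on a GFP reporter of Foxp3 into Foxp3-positive CD4+ cells (Treg) and CD4+ Foxp3-negative cells (CD4). The strain was not given in the sources used here. Each of the 5 libraries used here (Elf1 and Ets1 in both cell types with the same antibody lots, and Cbfb in Treg) was the single library of its group, so no difference below could be checked against replicates or tested. The Foxp3 list, with intervals of 200 bp, was called on combined libraries: 3 are labelled for Foxp3, 2 of them as technical repeats of one replicate. The Elf1 list had 241359 positions in CD4 and 187745 in Treg, the Ets1 list 242086 and 226148, and the Cbfb list 161760. Equal list lengths did not mean equal scores: the lowest score among the first 10000 was 15.1 (Elf1) and 11.5 (Ets1) in CD4, and 6.78 and 6.14 in Treg. The part of this in the results was not tested. Depth was unknown, and 95% intervals, exact Clopper-Pearson for shares, cover counting error only. Overlapping windows make some peaks share positions: 37 CD4-only peaks had another Foxp3 midpoint within 600 bp, and the 335 peaks came from 326 separate stretches.

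Ets1 was the more common strong factor at these peaks in CD4. It was strong alone at 159 of the 335 peaks (47.5%, 42 to 53), Elf1 was strong alone at 58 (17.3%, 13.4 to 21.8), and both were strong at 118 (35.2%, 30.1 to 40.6). At peaks strong in both cell types, both CD4 factors were strong at 1303 of 1999 (65.2%, 63 to 67.3), Ets1 alone at 23.4% and Elf1 alone at 11.5%. The Treg-only peaks, read in Treg, had Ets1 alone at 56.6%, Elf1 alone at 25% and both at 18.4%, so Ets1 alone was more frequent than Elf1 alone in all 3 groups. The factor that was not strong was usually still listed. Of the 159 peaks with strong Ets1 alone, 142 had a CD4 Elf1 position of some score, 125 of them at a false discovery rate (FDR) of at most 0.01. Of the 58 with strong Elf1 alone, 50 had a CD4 Ets1 position, 40 at that FDR.

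The CD4 lists held 241359 (Elf1) and 242086 (Ets1) positions, of which the rule used the first 10000. Within these the CD4-only peaks were of middle strength. Their best rank by score in either CD4 list, where 1 is the highest score, ran from 192 to 9983 with a median of 5298, against a median of 2314 at peaks strong in both cell types. Of the 335, 12 stood among the first 1000 ranks. The CD4-only share of the Foxp3 peaks strong in CD4 was 5.49% (61 of 1111) for the first 2500 best ranks, and 39.5% (88 of 223) for the last 2500. Fold enrichment is the authors' maximum likelihood estimate over a control that was not named. For the highest-scoring position within 300 bp its median was 8.28 for CD4 Elf1 (318 peaks, quartiles 4.97 and 14.2) and 8.01 for CD4 Ets1 (327 peaks, 5.03 and 12.3). The corresponding medians at peaks strong in both were 14.2 and 9.88. CD4 positions sat close to the peak centre, at a median of 50.5 bp for Elf1 and 45 bp for Ets1, near the 44 and 46 bp of peaks strong in both.

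Nearly all CD4-only peaks gained a Treg position when every deposited position was used. The number was 318 of 335 (94.9%, 92 to 97), against 97.9% of all Foxp3 peaks and 85.1% (80.6 to 89) of peaks strong in neither cell type. After the 335 peaks were moved by 10 kb up and down, 106 of 670 places (15.8%, 13.1 to 18.8) had such a position. Elf1 and Ets1 were both listed in Treg at 198 peaks, Ets1 alone at 69 and Elf1 alone at 51. With an FDR of at most 0.01, 287 peaks (85.7%, 81.5 to 89.2) had a Treg position, against 95.5% of all Foxp3 peaks. At that limit Elf1 was listed at 237 (70.7%) and Ets1 at 193 (57.6%), against 85.2 and 83.5% of all Foxp3 peaks. A stricter FDR of 0.001 left 250 peaks in all (74.6%), with Elf1 at 218 (65.1%) and Ets1 at 92 (27.5%). Over all Foxp3 peaks these shares were 92.8, 82.7 and 72.9%, but all Foxp3 peaks include those chosen for strong Treg positions. The FDR limits admit many more Elf1 than Ets1 positions over the genome (157731 and 61761 at 0.01), so these counts do not rank the 2 factors.

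**Figure D1:**
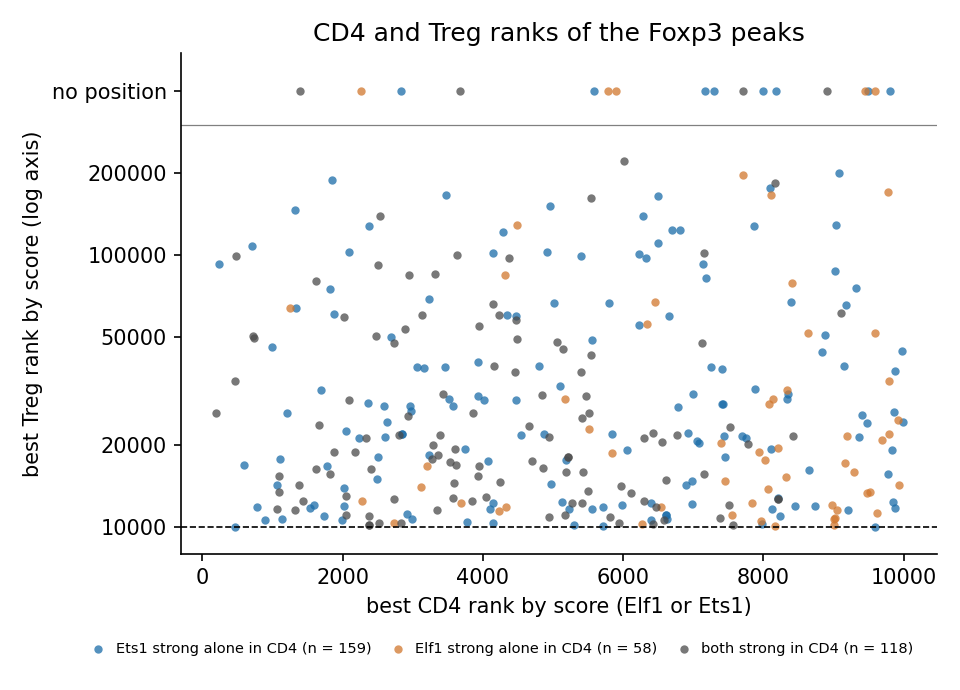
Each point is one of the 335 CD4-only Foxp3 peaks. The x axis gives the best rank by score in the CD4 Elf1 or Ets1 list, the y axis (log) the best rank in the Treg lists, with peaks lacking a Treg position on the top line and the limit of 10000 dashed. Colours give the factor that was strong in CD4. Of the points, 147 lie between the dashed line and rank 20000, and 17 lie on the top line.

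Many of the Treg positions lay just under the limit of the rule. The best Treg rank had a median of 21431 and quartiles of 12733 and 46959. It lay between the limit and 12500 at 76 peaks (22.7%) and up to 20000 at 147 (43.9%). The peaks strong in Treg only lay closer to the limit in CD4: 82 of 256 (32%) were reached with 12500 positions per list and 174 (68%) with 20000. With 180000 positions both groups stood at 93.4%, and with all positions 242 of the 256 Treg-only peaks (94.5%, 91 to 97) had a CD4 position. Among CD4-only peaks, those with strong Ets1 alone were reached by 20000 positions at 58 of 159 (36.5%, 29 to 44.5), those with both factors at 58 of 118 (49.2%, 39.8 to 58.5) and those with Elf1 alone at 31 of 58 (53.4%, 39.9 to 66.7).

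**Figure D2:**
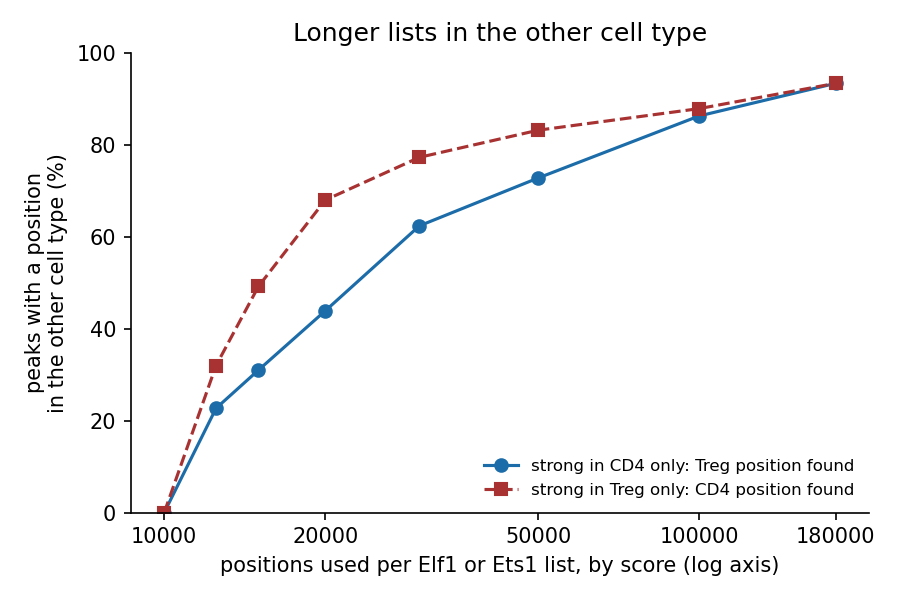
The x axis (log) gives how many positions per Elf1 or Ets1 list were used in the other cell type, and the y axis the percentage of peaks with a position within 300 bp. Circles are the 335 CD4-only peaks searched in Treg, squares the 256 Treg-only peaks searched in CD4. At 20000 positions the values are 43.9 and 68%, and both end at 93.4%.

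The limit can be read from its nearest cases. The 3 CD4-only peaks whose best Treg rank was closest to the limit had Treg Ets1 ranks of 10040 (chromosome 13, 56578164 to 56578364), 10043 (chromosome 6, 140656704 to 140656904) and 10097 (chromosome 19, 4191818 to 4192018). Just across it, 3 peaks counted as strong in both had best Treg ranks of 9944 (chromosome 5, 130006902 to 130007102), 9838 (chromosome 12, 16177064 to 16177264) and 9837 (chromosome 1, 82828218 to 82828418). On the CD4 side the last peaks admitted had best ranks of 9983, 9970 and 9926, and the first left out among those weak in Treg had 10007, 10018 and 10041. On the Treg side, the deciding positions were 4.28, 9.19 and 2.89-fold at the 3 CD4-only peaks. They were 5.99 (Ets1), 10.3 (Elf1) and 6.64-fold (Elf1) at the 3 peaks counted as strong in both. The Ets1 value of 5.99 lay between the Ets1 values of CD4-only peaks. The Elf1 values come from another library and are not comparable.

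At peaks with a position in both cell types, fold enrichment was lower in the Treg library more often than not. For Ets1, 204 of 261 CD4-only peaks (78.2%, 72.7 to 83) had a lower Treg value, against 70.3% of all Foxp3 peaks with both. On the log2 scale the median difference, Treg minus CD4, was -0.87 (quartiles -1.54 and -0.17), with a median Treg Ets1 fold of 4.39. For Elf1, 167 of 238 (70.2%, 63.9 to 75.9) were lower in Treg, against 59% of all Foxp3 peaks, the median log2 difference was -0.59 (quartiles -1.26 and 0.16), and the median Treg fold was 5.71. At peaks strong in both cell types these medians were -0.58 for Ets1 and -0.22 for Elf1, at Treg-only peaks 0.32 and 0.74, and over all Foxp3 peaks -0.53 and -0.20. The rule used the same contrast, so these values support nothing, and no cause was tested.

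**Figure D3:**
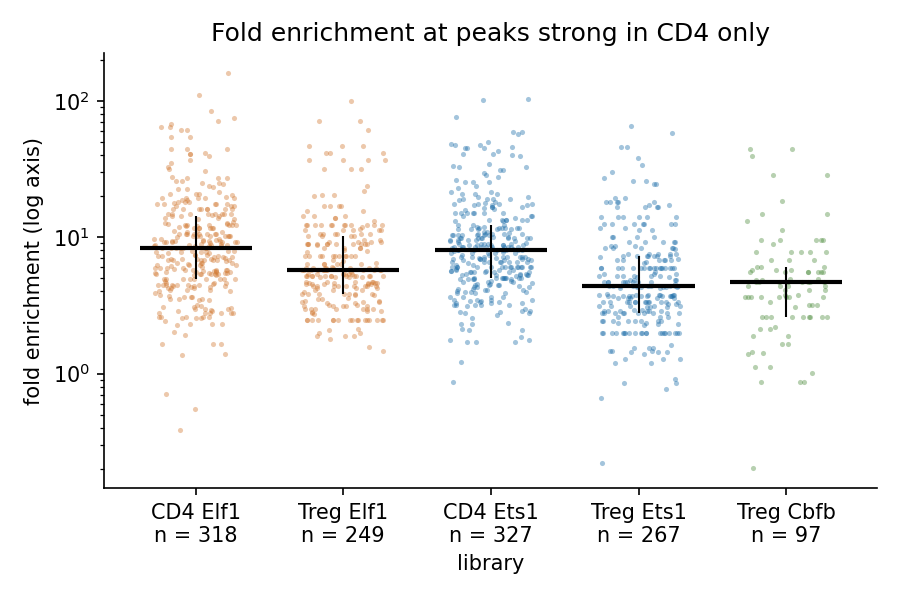
The y axis (log) gives the authors' fold enrichment of the highest-scoring position within 300 bp of each CD4-only peak, by library on the x axis. Points are peaks, thick bars medians and thin lines the quartiles. The medians are 8.28 and 5.71 for Elf1 in CD4 and Treg, 8.01 and 4.39 for Ets1, and 4.70 for Cbfb, and the ranges of all libraries overlap.

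At most single peaks the authors' lower bound in one cell type did not exceed the estimate in the other. The error of that other estimate was not counted. The lower bound of the CD4 fold exceeded the Treg estimate at 73 of 261 peaks for Ets1 (28%, 22.6 to 33.8) and at 42 of 238 for Elf1 (17.6%, 13 to 23.1). Over all Foxp3 peaks the shares were 17.6% and 9.22%. The opposite, a Treg lower bound above the CD4 estimate, occurred at 5 of 261 CD4-only peaks for Ets1 (1.92%, 0.625 to 4.41). For Elf1 it occurred at 8 of 238 (3.36%, 1.46 to 6.52). Over all Foxp3 peaks these shares were 2.15 and 5.15%. Where both cell types had a position, the 2 lay within 50 bp of each other at 107 of 238 peaks for Elf1 (45%, 38.5 to 51.5) and at 93 of 261 for Ets1 (35.6%, 29.8 to 41.8). These shares were 60.4 and 44.1% at peaks strong in both, 32.3 and 42.8% at Treg-only peaks, and 55.3 and 41.8% over all Foxp3 peaks.

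No Treg Elf1 or Ets1 position of any score lay within 300 bp of the midpoint at 17 CD4-only peaks. In CD4, Ets1 was strong alone at 8 of them, Elf1 alone at 5 and both at 4, and 13 had a best CD4 rank over 5000. The nearest Treg position lay 324 to 10387 bp away with a median of 739 bp, and at 8 of the 17 it lay within 500 bp.

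The peak with the best CD4 rank among the 17 lay on chromosome 14 at 41772504 to 41772704. There CD4 Ets1 had rank 1396 with a modest fold of 3.48 (lower bound 1.59), CD4 Elf1 had rank 9808 with 2.76, and the nearest Treg position was 1495 bp away. No Cbfb position was listed within 300 bp. The next lay on chromosome 11 at 76220582 to 76220782, with CD4 Elf1 alone (rank 2266, 19.6-fold, lower bound 7.90). That Elf1 position was 294 bp from the midpoint, and a strong Treg position lay 331 bp from the midpoint, just past the distance of the rule. At 74369656 to 74369856 on chromosome 11, CD4 Ets1 alone was listed (rank 2827, 4.75-fold), and no Treg position lay within 9165 bp.

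The next by CD4 rank, on chromosome 10 at 89165899 to 89166099, carried both CD4 factors at 15 and 39 bp from its centre (Elf1 3.50-fold, Ets1 5.26-fold) and a Treg Cbfb position of rank 3833 (3.19-fold) 39 bp from the midpoint. Its nearest Treg ETS position was 1279 bp away. The fifth, on chromosome 15 at 79758168 to 79758368, had CD4 Ets1 at 19.8-fold (lower bound 5.70, rank 5580). The sixth and the seventh had Elf1 as the strong factor: 5.34-fold on chromosome 1 at 135960412 to 135960612, and 12.5-fold on chromosome 19 at 54018510 to 54018710. A strong Treg position lay 391 bp from the latter. The last 3 of the first 10 lay on chromosome 8 at 114500425 to 114500625 (Ets1 7.11-fold), on chromosome 4 at 106582794 to 106582994 (Ets1 8.01-fold) and on chromosome 7 at 135527622 to 135527822 (Elf1 10.3-fold, Ets1 3.42-fold). The first of these was the farthest from any Treg position, at 10387 bp, and the third had a strong Treg position at 335 bp and a Foxp3 peak strong in both cell types 127 bp away.

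The strongest CD4 binding mostly came with weaker Treg binding within 300 bp of the midpoint rather than none. The best CD4 and Treg positions did not always coincide. By CD4 Ets1 rank the first peak lay on chromosome 12 at 81214206 to 81214406, where Ets1 had rank 192 and 48.3-fold enrichment in CD4. The best Treg Ets1 position had rank 32010 and fold 24.6. It lay at 81214406, on the other side of the midpoint from the CD4 Ets1 position at 81214060. Elf1 was 64.6-fold in CD4 and 36.7-fold in Treg. A second CD4-only peak overlapped this one, 126 bp from midpoint to midpoint, with CD4 Ets1 at 81214402 (rank 3863, 47.3-fold). The second by rank, on chromosome 11 at 58115332 to 58115532, had CD4 Ets1 at rank 241 (16.2-fold, 275 bp from the midpoint). Within 300 bp of the midpoint it had no Treg Ets1 position, and Treg Elf1 at rank 92509 (3.84-fold). The window ended close to the CD4 Ets1 position. The third, on chromosome 6 at 140656704 to 140656904, had CD4 Ets1 at rank 463 (15.1-fold) and Treg Ets1 at 10043 (9.19-fold), so it lay close to the limit.

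The next by Ets1 rank lay on chromosome 18 at 75638495 to 75638695 (rank 467, 10.7-fold in CD4 at 75638562 against 3.71-fold in Treg at 75638753) and on chromosome 11 at 94559176 to 94559376 (rank 487, 10.9-fold). At the latter no Treg Ets1 position was listed, Elf1 was 22.6-fold in CD4 and 8.97-fold in Treg, and Cbfb reached 44.4-fold in Treg. This peak thus combined a Cbfb position of rank 2752 with Treg Elf1 at rank 98830.

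By CD4 Elf1 rank the first peak lay on chromosome 9 at 13897426 to 13897626, with rank 1246 and 24.4-fold enrichment at 297 bp from the midpoint. No Treg Elf1 position was listed within 300 bp of the midpoint, and Treg Ets1 was 2.00-fold. That window ended just past the CD4 Elf1 position, so the values given for this peak leave out Treg positions beyond it. On chromosome 4, at 133369674 to 133369874, CD4 Elf1 had rank 2047 and 161-fold enrichment (lower bound 30), the highest Elf1 fold of all CD4-only peaks. Treg Elf1 there reached 61.2-fold but rank 11076, and a Foxp3 peak 626 bp away was itself strong in Treg only. The third by rank was the chromosome 11 peak at 76220582 described above. The fourth, on chromosome 6 at 83275830 to 83276030, had 14.6-fold in CD4 and 4.67-fold in Treg. The fifth, on chromosome 5 at 65884088 to 65884288, had both CD4 factors high (Elf1 40.8-fold, Ets1 40.9-fold) and both lower in Treg (9.51 and 17.2-fold). Its Ets1 positions lay apart, at 65884089 in CD4 and 65884260 in Treg. Another CD4-only peak lay 120 bp from this peak.

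Where both CD4 factors were strong and a Treg position was listed, the weakest Treg binding was found at 3 peaks. On chromosome 11 at 105918274 to 105918474 the only Treg position was Ets1 at rank 221100 (1.46-fold, FDR 0.201), with 6.52-fold for Elf1 and 1.70-fold for Ets1 in CD4. On chromosome 2 at 9441785 to 9441985 Treg Elf1 had rank 183432 (3.15-fold), against 11.6-fold in CD4. On chromosome 1 at 182318857 to 182319057 Treg Elf1 had rank 161539 with a fold of 41.6 (lower bound 6.63), above the 9.39 of CD4 Elf1. These Elf1 positions lay apart, on opposite sides of the midpoint, at 182319141 in Treg and 182318837 in CD4. Score and fold enrichment of these separate positions thus ordered the cell types differently.

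Strong CD4 sites at Foxp3 peaks were set beside those elsewhere as a description, since the ranks are those the rule used. The strong CD4 Elf1 and Ets1 positions were joined within 300 bp into sites, and Treg positions were searched around the CD4 site. Of 2249 sites within 300 bp of a Foxp3 midpoint, 329 had no strong Treg position (14.6%, 13.2 to 16.2). Of 11860 sites over 1000 bp from any Foxp3 midpoint, 4546 had none, or 38.3% (37.5 to 39.2). Foxp3 peaks lay at higher-ranked sites, so the 2 were also set side by side by rank. Among ranks 1 to 2000 the shares overlapped, at 4.38% (3.12 to 5.97) and 4.13% (3.39 to 4.98). For ranks 2001 to 4000 they were 12.7% (10.1 to 15.7) at Foxp3 peaks and 22.3% (20.6 to 24) away, and for ranks 8001 to 10000 they were 40% (32.9 to 47.4) and 68.4% (66.4 to 70.2). With 1 library per group this gap was not tested.

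**Figure D4:**
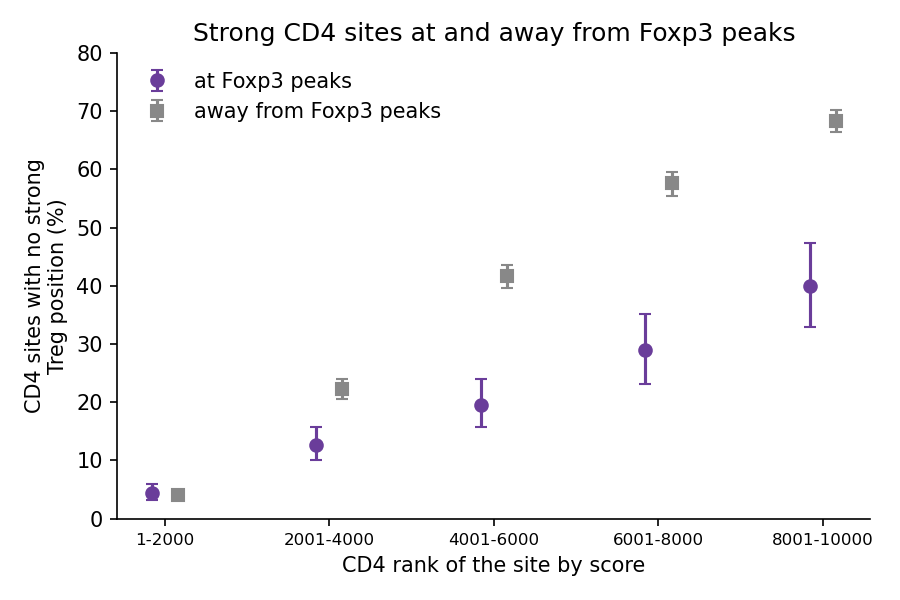
The x axis gives the rank of the strong CD4 site, the y axis the percentage of sites with no strong Treg Elf1 or Ets1 position within 300 bp. Circles are sites at Foxp3 peaks and squares sites over 1000 bp away, with exact 95% intervals. The shares are 4.38 and 4.13% in the first class and 40 and 68.4% in the last.

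What remained in Treg at these sites is likewise a description from the lists of the rule. Of the 329 CD4-only sites at Foxp3 peaks, 312 (94.8%, 91.9 to 97) had a Treg position of some score, against 3515 of the 4546 elsewhere (77.3%, 76.1 to 78.5). Among ranks 1 to 2000 the intervals overlapped, at 97.4% (86.2 to 99.9) and 87.5% (79.6 to 93.2). Among ranks 8001 to 10000 the shares were 91.9% (83.2 to 97) and 69.6% (67.3 to 71.8). At Foxp3 peaks 114 of the 329 had both CD4 factors strong (34.7%), against 644 of the 4546 (14.2%). These pooled shares mix ranks. They were close for ranks 1 to 2000, at 42.1 and 39.4%. For ranks 2001 to 4000 they were 52.1 and 34.4%, and for ranks 4001 to 6000 they were 45.3 and 22.2%. For ranks 6001 to 8000 they were 30.4 and 11.7%, and for ranks 8001 to 10000 they were 6.76 and 3.23%. The part of the number of factors in the shares with a Treg position was not tested.

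Cbfb, which the rule did not use, was listed in Treg at an FDR of at most 0.01 within 300 bp of 79 CD4-only peaks (23.6%, 19.1 to 28.5). The share over all Foxp3 peaks was 28.1%. Treg-only peaks had 23.8% (18.7 to 29.5), peaks strong in both 31.5% (29.5 to 33.6) and peaks strong in neither 14.2% (10.4 to 18.7). CD4-only and Treg-only peaks thus differed by less than their counting error. After the CD4-only peaks were moved by 10 kb, 34 of 670 places had a Cbfb position (5.07%, 3.54 to 7.02). CD4-only sites away from Foxp3 peaks, searched around the CD4 position, had Cbfb at 9.17% (8.35 to 10), and those at Foxp3 peaks at 23.7% (19.2 to 28.7). These pooled shares mix ranks. For ranks 1 to 2000 they were 14.4% away (8.3 to 22.7) and 31.6% at Foxp3 peaks (17.5 to 48.7). For ranks 4001 to 6000 they were 10.3% (8.48 to 12.4) and 13.3% (6.58 to 23.2). In these classes the intervals overlap. Without overlap the shares were 11.7 and 35.6% for ranks 2001 to 4000 and 9.17 and 24.6% for ranks 6001 to 8000. For ranks 8001 to 10000 they were 7.34 and 17.6%, also without overlap.

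**Figure D5:**
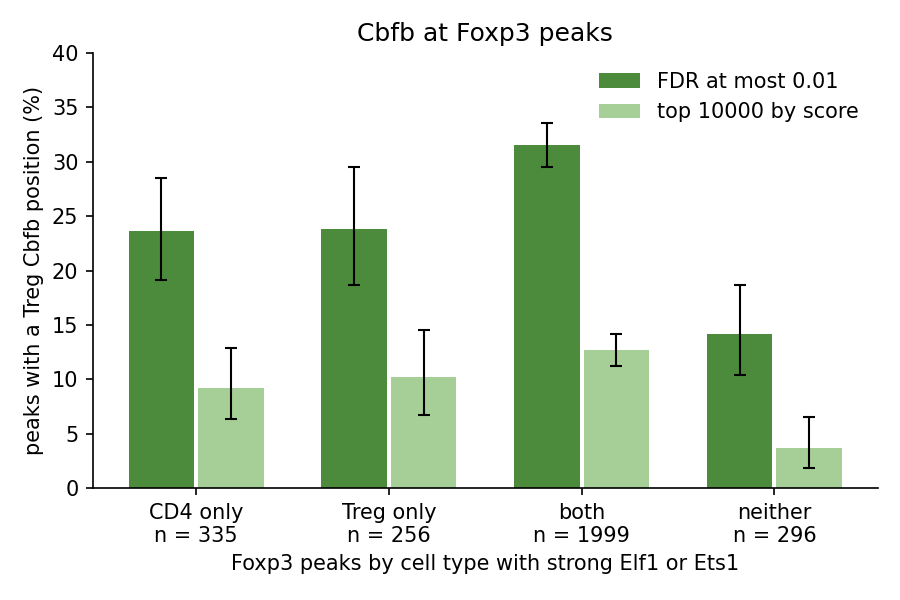
The y axis gives the percentage of Foxp3 peaks with a Treg Cbfb position within 300 bp, the x axis the 4 groups by the cell type with strong Elf1 or Ets1. Dark bars use positions at an FDR of at most 0.01, light bars the 10000 highest by score, with exact 95% intervals. CD4-only and Treg-only peaks stand at 23.6 and 23.8% in dark and 9.25 and 10.2% in light.

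Cbfb was also counted by CD4 rank, with the split set after the values had been seen. Among peaks with a best CD4 rank up to 5000, 52 of 154 CD4-only peaks had Cbfb (33.8%, 26.4 to 41.8), close to the 33% (30.7 to 35.4) of peaks strong in both. For ranks above 5000 the shares were 14.9% (10.1 to 21) and 25.7% (21.5 to 30.2). In 5 finer classes of the CD4-only sites at Foxp3 peaks the shares had no steady order, at 31.6, 35.6, 13.3, 24.6 and 17.6% from the highest ranks to the lowest. CD4-only peaks with both CD4 factors strong had Cbfb at 35 of 118 (29.7%, 21.6 to 38.8), those with Ets1 alone at 33 of 159 (20.8%, 14.7 to 27.9) and those with Elf1 alone at 11 of 58 (19%, 9.87 to 31.4). These intervals overlap. Of the 17 peaks with no Treg ETS position, 4 had Cbfb.

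The highest Cbfb score at a CD4-only peak was of rank 46, on chromosome 5 at 139858270 to 139858470, with a fold of 18.3 (lower bound 4.66) 28 bp from the midpoint. CD4 Ets1 had rank 1203 there (17.2-fold), while Treg Elf1 and Ets1 had ranks 26258 and 28855 (12.2 and 8.21-fold). On chromosome 1, at 145853724 to 145853924, Cbfb had rank 425 and lay 2 bp from the midpoint (5.60-fold). CD4 Ets1 was 9.95-fold there and Treg Ets1 3.77-fold. The third, on chromosome 13 at 55470910 to 55471110, had Cbfb at rank 450 (6.79-fold) and both CD4 factors strong, with Elf1 at 20.9-fold in CD4 and 5.17-fold in Treg.

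CD4-only peaks had Foxp3 neighbours about as often as all Foxp3 peaks. Another Foxp3 midpoint lay within 10 kb of 129 of them (38.5%, 33.3 to 44), against 38.6% of all Foxp3 peaks. Peaks whose nearest neighbour lay within 600 bp were then left out, because the windows overlap. At the remaining CD4-only peaks with a neighbour within 10 kb, the nearest neighbour was itself CD4-only at 14 of 92 (15.2%, 8.58 to 24.2). At peaks strong in both cell types it was CD4-only at 62 of 490 (12.7%, 9.84 to 15.9). The neighbour was strong in both at 61 of the 92 (66.3%), near the 68.3% (485 of 710) of all Foxp3 peaks with such a neighbour. A strong Treg ETS position lay within 1000 bp of 67 CD4-only peaks (20%, 15.8 to 24.7) and within 10 kb of 200 (59.7%, 54.2 to 65). Peaks strong in neither cell type, which also lack one within 300 bp, had 17.2% (13.1 to 22) and 53% (47.2 to 58.8), and all Foxp3 peaks 82.2 and 90.5%. With gaps of at most 10 kb, 17 runs had 2 CD4-only peaks each, but in 8 of them the midpoints lay within 600 bp, so that the windows overlapped. One run had 3, from 84515684 to 84519174 on chromosome 17, and 2 of these lay 292 bp apart and shared a CD4 Ets1 position.

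Leaving out 2 unplaced contigs with 1 Foxp3 peak each, neither CD4-only, the CD4-only share of Foxp3 peaks ran from 4.9% (10 of 204, 2.38 to 8.83) on chromosome 10 to 27.3% (6 of 22, 10.7 to 50.2) on chromosome X. Chromosome 17 had 19.8% (23 of 116, 13 to 28.3). Only the intervals of chromosomes 10 and 17 left out the 11.6% of all Foxp3 peaks, and no adjustment was made for looking at every chromosome. On chromosome 19, CD4-only peaks numbered 13 of 90 (14.4%, 7.92 to 23.4) and Treg-only peaks 2 (2.22%, 0.27 to 7.8). Over all 2886 Foxp3 peaks the 2 groups numbered 335 and 256, and the CD4-only interval of chromosome 19 included the 11.6%.

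How many peaks were CD4-only varied little with the length of the lists, but which ones did. With 5000 positions per list 347 peaks met the rule and with 20000 positions 288. Of the 335 peaks, 154 and 188 were among these, and 86 met the rule at all 3 lengths. At 20000 positions the other 147 had a strong Treg position. The order of CD4-only and Treg-only peaks depended on the length, with 347 and 379 at 5000 positions, 335 and 256 at 10000, and 288 and 121 at 20000. Ranking by fold enrichment in place of score gave 563 CD4-only peaks, 76 of them among the 335 (22.7%), and 135 Treg-only peaks.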

How the data were processed

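The authors aligned reads to mm9 using Bowtie 0.12.7, per the submitters' processing notes. The authors deposited 1 Foxp3 interval list and, for 5 libraries, single-base positions with a score, an FDR (q-value), an E-value and a fold enrichment, per the file headers. The sources used here do not name the caller, its thresholds or the control. Score ties at rank 10000 entered together (10143 positions for Treg Elf1). Coordinates are those of the files. The gene and promoter tables at hand are on another build, so no genes or sequences are named.

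The peaks and lists were chosen with earlier results of these data known. Distances ran from the midpoint, and the highest-scoring position within 300 bp stood for a library. Peaks named were the first 5 by CD4 rank per factor, the first 10 without a Treg position, the 3 nearest each limit, the 3 highest Cbfb scores and the 3 weakest in Treg with both CD4 factors strong. Rank classes were set after the values had been seen. The input and CD4 Cbfb libraries were not analysed here. Overlap functions were tested on simulated data. Python 3.11.15, numpy 2.4.6, pandas 2.3.3, scipy 1.17.1 and matplotlib 3.10.9 were used.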

Additional observations from a re-analysis of the deposited data

How the results depend on the processing

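No paired analysis was possible because each library used here was the only one of its group. The peak number was 335 and changed by less than 1.5 times with distances of 200 and 500 bp, from the interval edge, with 5000 or 20000 positions, with Elf1 alone and with ties left out (an alternative added after seeing the data). It was 563 when ranked by fold and 604 with Ets1 lists alone. Treg-only peaks numbered 121 with 20000 positions and 135 when ranked by fold. The share gaining any Treg position was 89.3% at 200 bp, 98.8% with 5000 positions, 87.8% with 20000 and 98.6% when ranked by fold. With Treg positions limited by FDR it was 79.4% at 200 bp, 95.1% with 5000, 71.9% with 20000 and 74.6% at an FDR of 0.001. Strong CD4 sites away from Foxp3 peaks gained a Treg position at 92.3% with 5000 and 48.7% with 20000. Longer strong lists leave fewer weak positions to gain. Cbfb was present at 28.5% of the peaks chosen with 5000 positions, at 17% with an FDR of 0.001 and at 9.25% with its 10000 highest. A Foxp3 neighbour was present at 29.3% within 5 kb and 56.7% within 50 kb. Median log2 ratios kept their sign in all 6 alternatives run, but each alternative kept the contrast of the rule, so this supports nothing. Unknown depth and control limit every comparison between libraries.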
